A study of Rattus norvegicus with 2 samples.

Results

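The genes described here encode proteins of the immune system: the major histocompatibility complex (MHC, named RT1 in the rat), complement, chemokines, interleukins, the tumour necrosis factor (TNF) family, interferon-induced proteins, Fc receptors and CD surface antigens. They were chosen by symbol, not by signal. Probe sets with a single gene symbol were taken where the symbol began with RT1, Ccl, Cxcl, Tnf, Ifit or Fcgr, or with Cd or Il and a digit, and those of C1qa, C1qb, C1qc, C3 and B2m were added. Cd9, Cd63 and Ptprc were left out. This gave 167 probe sets for 107 genes, out of 7006 probe sets for 4736 genes with 1 symbol, and C1qa had none under the rule. RNA came from hippocampal synaptosomes, a biochemical fraction of nerve endings with attached postsynaptic membrane, and from the total hippocampus, in both cases of Sprague Dawley rats at postnatal day 70 with no treatment named. Each was measured on 1 array, so there is no replicate, every value is a single measurement and the groups could not be compared by a test. How many animals were pooled is not in the labels. The cRNA hybridised was made from oligo(dT)-primed, SMART-amplified cDNA.

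MHC class I molecules pair a heavy chain with beta-2 microglobulin and present peptides from the cytosol on most nucleated cells, while class II molecules present endocytosed material mainly on microglia, macrophages and other antigen-presenting cells. In the brain class I molecules and complement are also known for a part in synapse refinement. Chemokines and interleukins are secreted signals that are usually scarce in the healthy brain, and many CD antigens, such as the tetraspanins, are made by neurons and glia as well as by leukocytes.

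Promoters of 3 members whose signals are described below are printed to show the elements through which such genes are known to be controlled. B2m encodes the class I light chain, RT1-CE16 a class I heavy chain and Ifitm3 an interferon-induced membrane protein. The sequences are RefSeq promoters of build GRCr8, from 250 bases before to 50 bases after the annotated start, 5′ to 3′ on the gene's strand. Capitals mark matches, on either strand, to the interferon regulatory factor core AANNGAAA, the NF-kB type site GGGNNTTCC, the core TGACG of the X2 box and the Y box CCAAT. No base of these 3 windows lay in more than 1 match.
B2m, chr3:129549080-129549379, plus strand: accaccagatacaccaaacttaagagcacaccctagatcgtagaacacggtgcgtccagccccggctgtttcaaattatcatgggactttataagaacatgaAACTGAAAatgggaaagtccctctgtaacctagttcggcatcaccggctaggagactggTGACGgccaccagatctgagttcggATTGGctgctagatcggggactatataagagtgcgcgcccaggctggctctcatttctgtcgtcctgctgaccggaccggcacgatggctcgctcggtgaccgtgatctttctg
RT1-CE16, chr20:3265394-3265693, minus strand: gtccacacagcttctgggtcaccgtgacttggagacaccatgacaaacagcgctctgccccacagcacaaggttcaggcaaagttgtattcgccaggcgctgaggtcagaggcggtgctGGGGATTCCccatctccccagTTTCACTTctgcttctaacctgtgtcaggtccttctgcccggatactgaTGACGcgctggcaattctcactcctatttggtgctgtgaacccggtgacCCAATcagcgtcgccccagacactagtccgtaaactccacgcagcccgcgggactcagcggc
Ifitm3, chr1:205541709-205542008, minus strand: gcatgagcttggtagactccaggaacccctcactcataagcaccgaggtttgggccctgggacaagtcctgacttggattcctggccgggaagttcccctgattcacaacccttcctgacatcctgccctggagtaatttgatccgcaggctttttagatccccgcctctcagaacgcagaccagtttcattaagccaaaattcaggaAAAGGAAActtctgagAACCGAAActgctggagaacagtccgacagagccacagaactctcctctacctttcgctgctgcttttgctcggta

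The B2m window held AACTGAAA at -148 from the start, TGACG at -89 and ATTGG, the Y box on the other strand, at -64. The RT1-CE16 window held all 4 motifs, and the Ifitm3 window held the interferon regulatory factor core at -42 and -26 and none of the others as spelled here. The NF-kB type pattern has 9 letters, so similar stretches with another spacing were not marked in any window. An unmarked window is therefore not shown to lack such a site. Promoters were found for 81 of the 107 member genes. The interferon regulatory factor core was in 31 of these 81 (38.3%), against 25.9% of all 27457 promoters of this length and 18.7% of those of genes on the array. Among the 8 class I promoters it was in 7, and among the 9 class II promoters in 2. The NF-kB type site was in 14 of the 81 (17.3%), against 5.97% of all promoters. For genes on the array it was 6.82%. The X2 core was in 23.5% against 22% of all promoters and 28.5% of those of the array. It was in 5 of the 8 class I promoters and in 1 of the 9 class II promoters. The Y box was in 43.2% against 37.7% and 38.2%. It was in all 9 class II promoters and in 7 of the 8 class I promoters. The motifs were chosen after the sequences had been seen. A match describes letters only, and no binding was measured.

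Of the member probe sets, 48.5% lay under the signal floor on both arrays, and 82.6% within a stricter noise limit. The deposited signals are whole numbers on a linear scale, and many are negative. A signal was counted as above the floor when it exceeded 846, the median of all non-control values of both arrays pooled. On the synaptosome array 60 of the 167 member probe sets (35.9%) exceeded this floor, against 50.2% of all probe sets with 1 symbol. On the total hippocampus array 75 (44.9%) did, against 51.7%. The floor was passed on both arrays by 49 member probe sets, on the synaptosome array only by 11, on the hippocampus array only by 26 and on neither by 81. Of all probe sets with 1 symbol, 9.78% passed it on the synaptosome array only, 11.3% on the hippocampus array only and 38.5% on neither. The noise limit was set on each array at the 95th percentile of the size of its negative values, 2912.6 for synaptosomes and 5280.25 for the hippocampus. It was exceeded by 28 member probe sets (16.8%) in synaptosomes, against 23.9% of all, and by 13 (7.78%) in the hippocampus, against 14.5%. On neither array was it exceeded by 138 member probe sets, 82.6% of them, against 75% of all. The limits differ between arrays, so these last counts show no difference between the samples. Of the 107 genes, 45 had no probe set above the floor on either array. Neither their presence nor a difference was detectable for these.

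**Figure D1:**
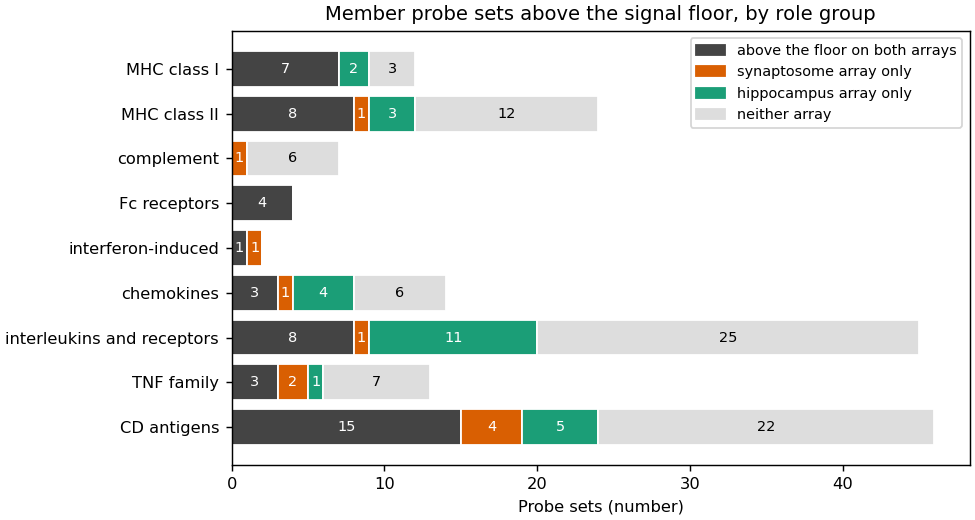
Number of member probe sets (horizontal axis) in each role group (vertical axis), divided by the arrays on which the signal exceeded the floor of 846. All 4 Fc receptor probe sets were above it on both arrays, while 6 of 7 complement and 25 of 45 interleukin probe sets were above it on neither.

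**Figure D2:**
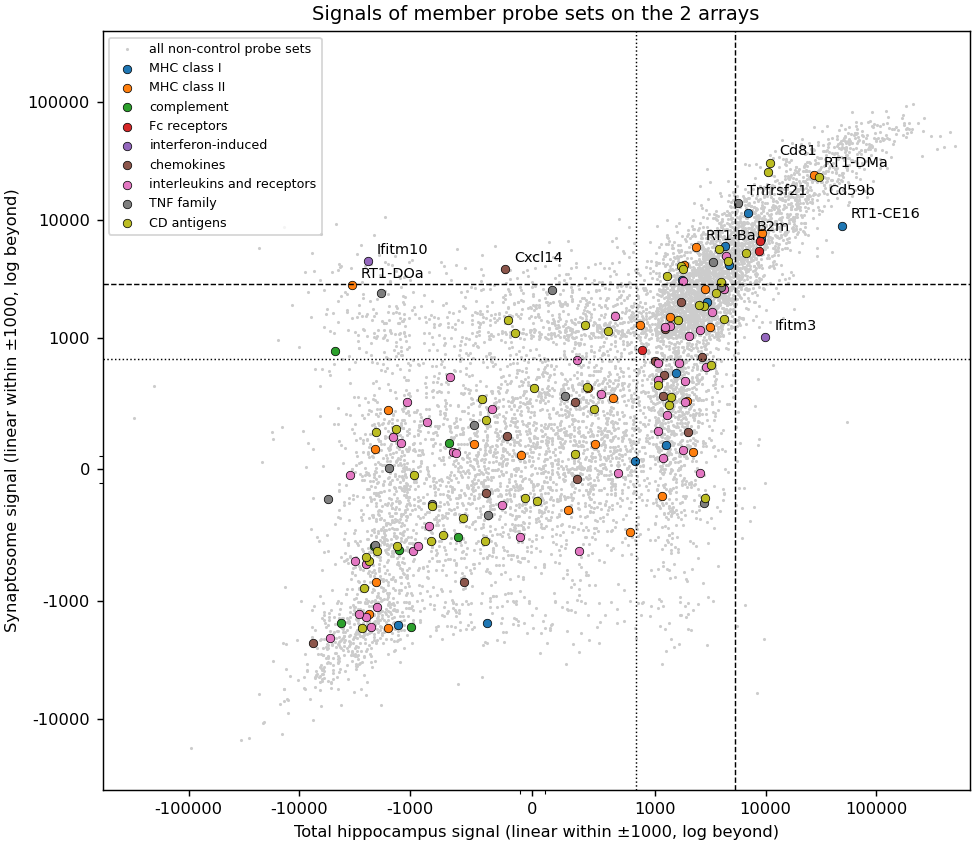
Signal of each probe set in the total hippocampus (horizontal) and in synaptosomes (vertical), on axes that are linear within 1000 of 0 and logarithmic beyond. Grey points are all non-control probe sets, coloured points the members, dotted lines the floor and dashed lines the noise limit of each array. Cd81 lies above and RT1-CE16 and Ifitm3 below the main cloud of bright probe sets.

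For ratios, signals under the floor were raised to it, and the log2 difference, synaptosomes minus total hippocampus, was centred on the median of all probe sets past a filter on mean level, a shift of -0.17. All folds are on this centred scale, and a fold with 1 array at the floor is written "at least", a bound that holds only if both signals are taken at face value. The probe set with the highest mean level stood for a gene. The filter was passed by 51 of the 107 genes, 39 of them above the floor on both arrays, and a gene above it on only 1 array had to show a difference to pass. Of the 51, 10 (19.6%) had at least 2-fold more signal in synaptosomes, against 19.1% of all 2735 genes past the filter. In the other direction 8 (15.7%) did, against 14.3%. The median log2 ratio was -0.02, against 0.00 for all genes. These shares lie near those of the array at large, so they are no result about the members, and the values below are of single genes. With the floor at percentile 75 of the pooled values, 3 member genes, Cd81, Tnfrsf21 and RT1-Ba, were past 2-fold upward and 2, Ifitm3 and RT1-CE16, downward, of the 33 then past the filter. Of all genes 8.09% and 9.48% were so at that floor. Only 9 member genes exceeded the noise limit on both arrays. Cd81 and Tnfrsf21 among them passed 2-fold upward, as 7.94% of the 743 such genes of the array did, and RT1-CE16 downward, as 10.2% did.

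**Figure D3:**
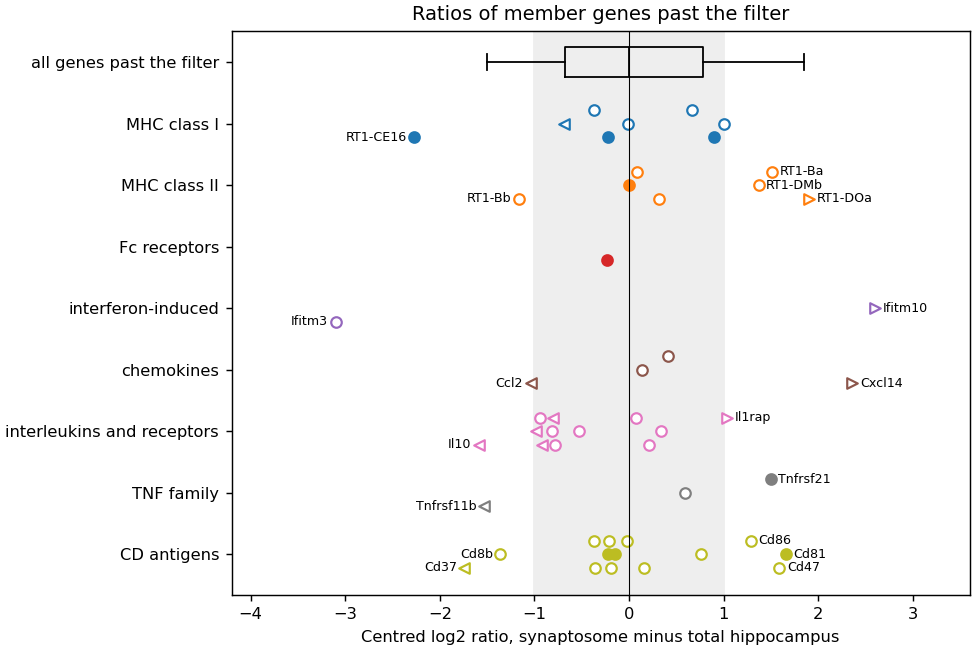
Centred log2 ratio (horizontal axis) of the 51 member genes past the filter, by role group. Filled symbols are genes above the noise limit on both arrays, open symbols the others, triangles bounds with 1 array at the floor. The grey band spans less than 2-fold, and the box at the top gives the quartiles of all 2735 genes, with whiskers at percentiles 5 and 95. Ifitm3 at -3.10 and Ifitm10 at 2.60 are the extremes.

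The only error that these data allow is the spread between probe sets of one gene. Its standard deviation (SD) on the log2 scale was 1.06 over the 14 member genes with several filtered probe sets, and 0.90 over the 658 such genes of the array. All filtered probe sets had one sign in 5 of the 14 (35.7%), against 59% of the 658. In Cd81 and Tnfrsf21 every filtered probe set passed 2-fold upward in synaptosomes, and in Il10 every one downward. Those of Cxcl14 and RT1-Ba passed it in opposite directions. Several of these pairs are designs on the same source sequence and are not independent. Both Il10 probe sets and the second of Tnfrsf21 were above the floor on only 1 array. Such a probe set had to show a difference to pass the filter, so its direction is no separate support. A 2-fold difference, 1 on the log2 scale, is thus within the spread between probe sets. The spread holds no variation between RNA preparations or arrays, since all probe sets were read on the same 2 arrays. A ratio beyond it may still not repeat.

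Of the 12 MHC class I probe sets, 7 were above the floor in synaptosomes and 9 in the hippocampus, and 1 heavy chain had a large difference. RT1-CE16 had a signal of 9028 in synaptosomes against 49108 in the total hippocampus. This was 4.83-fold lower in synaptosomes, a log2 ratio of -2.27 that exceeds the spread between probe sets, and it ranked 2 from the lowest of the 743 genes above the noise limit on both arrays. B2m, the light chain shared by class I molecules, went the other way. Its signal was 11469 in synaptosomes and 6898 in the hippocampus, 1.87-fold higher, which is within the spread between probe sets. RT1-A, a classical heavy chain, read 6026 and 4257, a log2 ratio of 0.67. RT1-CE12, another heavy chain of the class I family, read 4155 and 4699, a log2 ratio of -0.01. These heavy chain probe sets carry the array's suffix for a gene family. Their genes are close copies, so a signal may include RNA of related genes and its assignment to 1 symbol is uncertain. Other probe sets name RT1-CE16 together with RT1-A and RT1-A1 and were not counted as members. They read 1913, 2327 and -4444 in synaptosomes and 1738, 5683 and -9021 in the hippocampus, so the large difference rests on the 1 probe set used.

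Among the remaining class I genes no ratio reached 2-fold. RT1-M3-1, which presents formylated peptides, read 6976 in synaptosomes and 9120 in the hippocampus, a log2 ratio of -0.22, while a second probe set on the same sequence read -1557 and -370. RT1-M5 read 3112 and 1753, just under 2-fold higher. RT1-S3 read 2038 and 2966, a log2 ratio of -0.37, and its second probe set 189 and 1250. RT1-A3 read 734, under the floor, and 1534, at least 1.61-fold lower in synaptosomes. RT1-N3 was under the floor on both arrays.

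MHC class II signals differed between probe sets of the same chain. RT1-DMa, which helps load peptides onto class II molecules, had ratios near 0 with both of its probe sets. They read 24433 and 7762 in synaptosomes and 27429 and 9181 in the hippocampus, log2 ratios of 0.00 and -0.07. Its partner chain RT1-DMb read 4216 and 1834, 2.59-fold higher in synaptosomes, but the other RT1-DMb probe sets were under the floor on both arrays. RT1-DOa, a chain of the modulator of peptide loading, read 2815 and -3317, at least 3.74-fold higher on 1 probe set. Its partner RT1-DOb read 545 and 653, under the floor on both.

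The classical class II chains gave no common direction. RT1-Ba, an alpha chain, read 5961 in synaptosomes and 2351 in the hippocampus, 2.85-fold higher, with the probe set that stood for it. A second RT1-Ba probe set read 519 and 1945, a bound of 2.04-fold in the other direction. Its beta chain RT1-Bb read 1246 and 3143, 2.24-fold lower. Another RT1-Bb probe set read -204 and 1157, and the rest were under the floor on both arrays. With the floor at percentile 75 the log2 ratio of RT1-Bb was -0.17. RT1-Da read 1510 and 1359, a log2 ratio of 0.32, with 1 probe set. The other read 133 and 2207, at least 2.32-fold lower. RT1-Db1 read 2633 and 2797, a log2 ratio of 0.08 that was negative without centring or after quantile normalization. Cd74, the invariant chain that escorts class II molecules, did not pass the filter. Its brightest probe set read 1291 in synaptosomes and 875 in the hippocampus, and its other 3 probe sets were under the floor on both arrays. RT1-Ha was under the floor on both arrays. Of the 7 class II genes past the filter, 3 (42.9%) passed 2-fold upward in synaptosomes and 1 (14.3%) downward. Of all genes past the filter 19.1% and 14.3% did so. All 4 of these class II genes had hippocampus signals under the noise limit of 5280.25. The upward ones include RT1-Ba, whose probe sets disagree, and RT1-DOa, a bound.

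**Figure D4:**
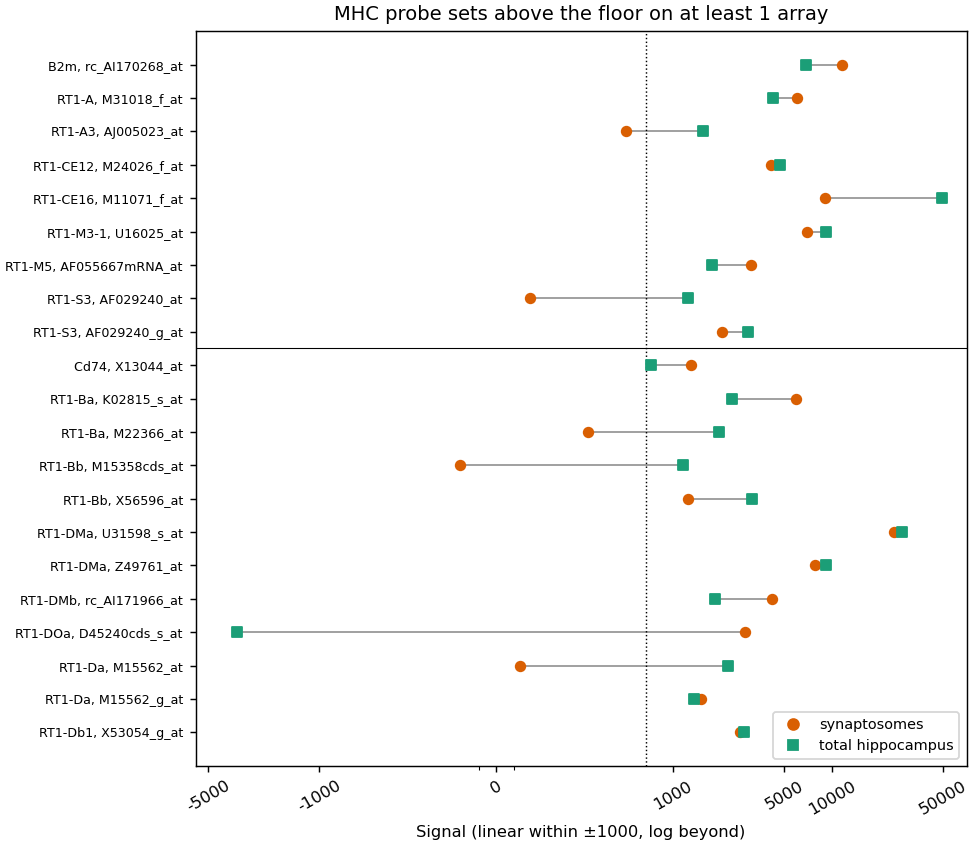
Signal (horizontal axis, linear within 1000 of 0 and logarithmic beyond) of each MHC probe set above the floor on at least 1 array, in synaptosomes (circles) and the total hippocampus (squares), with class I and B2m above the line and class II and Cd74 below it. The dotted line is the floor of 846. RT1-CE16 has the widest separation among probe sets above the floor on both arrays, and the probe sets of RT1-Ba and of RT1-Da point in opposite directions.

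Complement genes were at background. C1qb and C1qc encode chains of the C1q recognition molecule, and C3 the central component of the cascade. The 2 C1qb probe sets read 901 and -1544 in synaptosomes and -4713 and -4131 in the hippocampus, so that 1 of the 4 values exceeded the floor, by a narrow margin. The 3 C1qc probe sets read between -616 and -514 in synaptosomes and between -2098 and -607 in the hippocampus. C3 read 200 and -1657 in synaptosomes and -679 and -988 in the hippocampus. None of the 3 genes passed the filter, and no difference between the arrays was detectable.

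Both Fc receptor genes were above the floor. Fcgrt, the neonatal Fc receptor that carries and recycles immunoglobulin G, read 6692, 5464 and 2739 in synaptosomes and 8815, 8662 and 4015 in the hippocampus with its 3 probe sets. All 3 were lower in synaptosomes, with log2 ratios of -0.23, -0.49 and -0.38, each under 2-fold and within the spread between probe sets. Fcgr2b, an inhibitory receptor for immunoglobulin G, read 910 and 893, near the floor on both arrays.

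The 2 genes with symbols in Ifit, both of the Ifitm family of membrane proteins, lay at opposite ends. Ifitm3, which restricts virus entry, read 1030 in synaptosomes and 9910 in the hippocampus. This was 8.55-fold lower, a log2 ratio of -3.10. The synaptosome signal was just above the floor and under the noise limit, so the fold is uncertain in size. Ifitm10, a member of the same family, read 4543 in synaptosomes and -2374 in the hippocampus, at least 6.04-fold higher. Each gene has 1 probe set, and neither ratio could be checked against another.

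Of 12 chemokine genes, 3 had a probe set above the floor in synaptosomes and 6 in the hippocampus. By probe sets these were 28.6% and 50%, against 50.2% and 51.7% of all. Cxcl14 read 3858 in synaptosomes and -224 in the hippocampus with 1 probe set, at least 5.13-fold higher. Its other probe set, on the same sequence, read 861 and 2641, 2.73-fold lower, so the direction is not settled. Ccl2, which attracts monocytes, read 285 and 1963, at least 2.06-fold lower, and its second probe set 830 and 999. These Ccl2 values were all under the noise limit of their array. Ccl4 read 2015 and 1712, a log2 ratio of 0.41, and Cxcl6 1201 and 1230, one of 0.14. Cxcl10 and Cxcl13 were above the floor in the hippocampus only, at 1190 and 1168, and did not pass the filter. Ccl3, Ccl5, Ccl11, Ccl20, Cxcl2 and Cxcl3 were under it on both arrays. Ccl5 read -2266 in synaptosomes and -7542 in the hippocampus, beyond the noise limit in size and below 0 on the latter.

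Interleukins and their receptors were the group most often under the floor in synaptosomes after complement. Of its 45 probe sets, 9 (20%) were above it there and 19 (42.2%) in the hippocampus, with 11 above it in the hippocampus only and 1 in synaptosomes only, where 11.3% and 9.78% of all probe sets were. None of the 45 exceeded the noise limit in the hippocampus. Of 12 genes past the filter, 1 passed 2-fold upward and 1 downward (8.33% each), against 19.1% and 14.3% of all genes. Of the 12, 4 were above the floor in the hippocampus only and passed the filter through that array. Il10, an anti-inflammatory cytokine, read 778 and -30 in synaptosomes and 2859 and 2555 in the hippocampus. These pairs put it at least 3-fold lower with the first probe set and at least 2.68-fold with the second. Il1rap, the accessory chain of the interleukin-1 receptor, read 1549 and 670, a bound of 2.06-fold higher, and its second probe set 685 and 1071. The fold was under 2 without centring and after quantile normalization.

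The other interleukin genes past the filter were under 2-fold with the probe set that stood for them. Il13 read 4981 in synaptosomes and 4417 in the hippocampus, a log2 ratio of 0.34. Il15 had log2 ratios of -0.53 and 0.93 with its 2 filtered probe sets. The receptor chains Il2ra and Il2rb had ratios of -0.92, a bound, and -0.81, and Il1rl1, the receptor of interleukin-33, one of -0.94. Il3 and Il5, cytokines of leukocyte growth, had ratios of -0.78 and, as a bound, -0.98, and Il12b and the decoy receptor Il1r2 ratios of 0.07 and 0.21. A second filtered probe set of Il12b had a ratio of -0.98, a bound. Il1a and Il6r were above the floor in the hippocampus only, at 1291 and 1058, and did not pass the filter. Il1b, a main inflammatory cytokine, read 810, 85 and -30 in synaptosomes and 1660, 1180 and 701 in the hippocampus with its 3 probe sets. The hippocampus value was the higher one with each, but all 6 values lay under the noise limit of their array and 4 under the floor. Il2, Il4, Il6, Il7, Il9, Il18, Il33 and the antagonist Il1rn had no signal above the floor on either array, and neither had the receptors Il1r1, Il1rl2, Il4r, Il6st, Il7r and Il9r.

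In the TNF family 1 receptor gave clear signals. Tnfrsf21, or death receptor 6, which is known in neurons for a part in axon pruning, read 14157 in synaptosomes and 5630 in the hippocampus, 2.83-fold higher. Its second probe set, on the same sequence, read 2421 and -1807, at least 3.22-fold higher. Among the 743 genes above the noise limit on both arrays it ranked 12 from the highest. Tnfrsf11b, or osteoprotegerin, a soluble decoy receptor, read -252 and 2757, at least 2.90-fold lower in synaptosomes, with both signals under the noise limit. The ligand Tnfsf13, also called APRIL, had log2 ratios of 0.59, 1.77 as a bound, and -0.37 with its 3 probe sets. Tnf itself read -263 and -820, and its receptors Tnfrsf1a and Tnfrsf1b were under the floor with every probe set. So were Tnfrsf4, Tnfrsf8 and Tnfsf4.

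Among CD antigens the signals above the noise limit on both arrays were those of broadly expressed membrane proteins. Cd81, a tetraspanin that organises membrane receptors, read 30867 and 25477 in synaptosomes and 10957 and 10512 in the hippocampus. It was 3.17-fold and 2.73-fold higher with these probe sets, and ranked 6 from the highest of the 743 genes above the noise limit on both arrays. Cd59b, an inhibitor of the terminal complement complex, read 23377 and 30577, a log2 ratio of -0.22. Cd151, another tetraspanin, read 5294 and 6605, one of -0.15. Cd82, also a tetraspanin, read 4557 and 4605 with 1 probe set and -217 and 2814 with the other.

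Cd47, the signal that restrains phagocytosis by microglia and macrophages, read 3404 in synaptosomes and 1274 in the hippocampus, 3.01-fold higher. Its second probe set, on the same sequence, read 1149 and 617, at least 1.53-fold higher. The hippocampus signal of 1274 and both signals of the second probe set were under the noise limit. The fold is therefore uncertain in size. The log2 ratio of 1.59 fell to 0.28 with the floor at percentile 75 and to 0.22 with it at each array's noise limit. Cd200, a neuronal ligand that restrains microglia, read 3016 and 3937, a log2 ratio of -0.21. Cd24, a glycoprotein of developing neurons and lymphocytes, read 5727, 4079 and 1432 in synaptosomes and 3801, 1700 and -198 in the hippocampus. All 3 synaptosome values were the higher ones, with log2 ratios of 0.76, 1.43 and 0.93, the last a bound. Cd86, a costimulatory ligand, read 3878 and 1781, 2.45-fold higher, with 1 probe set and 550 and 1398 with the other. All hippocampus signals of Cd200, Cd24 and Cd86 were also under the noise limit. The Cd86 log2 ratio of 1.29 fell to 0.47 and 0.41 at the floors used for Cd47. With the mean over probe sets it was 0.37.

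The CD antigens of leukocytes were mostly at background. Cd37, a leukocyte tetraspanin, read 796 in synaptosomes and 3181 in the hippocampus, at least 3.34-fold lower. Cd8b, a chain of the T cell coreceptor, read 1456 and 4193, 2.56-fold lower, while its partner Cd8a read -621 and -1977. The signals of Cd37 and Cd8b were under the noise limit on both arrays. With the floor at percentile 75 their log2 ratios were -0.18 and -0.58. The T cell antigens Cd2, Cd3d, Cd3g, Cd4 and Cd28 were under the floor on both arrays, as were Cd36, Cd40, Cd40lg, Cd44, Cd46, Cd55, Cd79b and Cd80. Cd5 and the T cell receptor chain Cd247 were above it in synaptosomes only, at 1291 and 1107, and Cd1d1 and Cd52 in the hippocampus only, at 1058 and 1337. None of these 4 passed the filter. Cd48 and Cd72, of lymphocytes, had log2 ratios of -0.37 and -0.19. Cd14, a myeloid receptor for bacterial lipopolysaccharide, read 2441 and 3530, a log2 ratio of -0.36, and Cd53, a leukocyte tetraspanin, 1423 and 1621, one of -0.02. In all, 22 of 46 CD probe sets were above the floor on neither array.

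Other genes of these pathways were read from lists that hold no member. Of 11 filtered genes of antigen processing, 1 (9.09%) passed 2-fold upward in synaptosomes and 2 (18.2%) downward. Of all genes past the filter 19.1% and 14.3% did so. The median log2 ratio of the 11 was 0.09. Canx, a chaperone of class I heavy chains, read 34290 in synaptosomes and 13187 in the hippocampus, 2.93-fold higher. Psme2, an interferon-induced proteasome activator subunit, read 2648 and 12474, 4.19-fold lower, and the immunoproteasome subunit Psmb8 330 and 3043, at least 3.20-fold lower. The synaptosome signals of both were under the noise limit, as was the hippocampus signal of Psmb8. Tap1, the peptide transporter, had a log2 ratio of 0.57 and its partner Tap2 was under the floor on both arrays. Of 10 chemokine receptor and fractalkine genes on the array 3 passed the filter. Cx3cl1, or fractalkine, the chemokine that neurons present to microglia, read 29824 and 6473, 5.18-fold higher. Cxcr1 read 6157 and 1663, 4.17-fold higher, with the hippocampus signal under the noise limit. Cxcr4 had a log2 ratio of 0.02.

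Of 7 further complement genes past the filter, 1 (14.3%) passed 2-fold upward and 2 (28.6%) downward, against 19.1% and 14.3% of all genes. The median of the 7 was -0.71. C5ar1, the receptor of the C5a peptide, read 6269 in synaptosomes and 1260 in the hippocampus, 5.60-fold higher. The hippocampus signal was under the noise limit, so the fold is uncertain in size. Clu, or clusterin, an inhibitor of the terminal complex, read 52788 and 63221, a log2 ratio of -0.09. Cr1l, a membrane regulator of C3 activation, read 3621 and 6668, one of -0.71. The 12 filtered genes of cytokine and interferon signalling had a median of 0.05. Of these, 3 (25%) were at least 2-fold higher and 0 lower, against 19.1% and 14.3% of all genes. The 3 were Irf1, an interferon regulatory factor, and Csf1, each a bound, and Traf2, an adaptor of TNF receptors. Their hippocampus signals were 281, -1313 and 855. Of the 36 genes of that list on the array, 17 were under the floor on both arrays. Mif, a cytokine with high signals, read 41425 and 85724, a log2 ratio of -0.88.

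Markers of other cells also differed between the arrays, and their part in the values above was not tested. Of 14 filtered blood and vessel genes, 6 (42.9%) were at least 2-fold lower in synaptosomes and 1 (7.14%) higher. Of all genes 14.3% and 19.1% were. The 6 include the globin genes Hbb and Hbb-b1, whose probe sets carry the suffix for a gene family. The signals of the 18 genes of this list on the array, with values under 0 taken as 0, summed to 34901 in synaptosomes and 98800 in the hippocampus. Without the globin genes Hbb and Hbb-b1 the sums were 23129 and 34810. The haemoglobin chain Hbb read 6811 and 35126, 4.58-fold lower. Alas2, Col1a1 and Col1a2, of the same list, had log2 ratios of -0.09, -0.17 and 0.48. The endothelial receptors Flt1 and Kdr were 2.31-fold and at least 4.09-fold lower. Vcam1 and Slc2a1 were 2.93-fold and 1.84-fold higher, and Pecam1 had a log2 ratio of 0.38. Markers of microglia and macrophages summed to 119733 and 175383 over 10 genes, and to 70765 and 74930 without Apoe, and 0 of 5 filtered ones were 2-fold higher or lower. Aif1 had a log2 ratio of 0.98, Ctss one of -0.03 and Apoe, which astrocytes also make, one of -0.87, while Csf1r, Itgam, Lgals3 and P2ry12 were under the floor on both arrays. Ptprc, the common leukocyte antigen, read 400 and 1521, at least 1.60-fold lower. Lymphocyte markers summed to 43987 and 30030, of which Thy1, also a neuronal gene, gave 36736 and 22868, and Cd3d, Cd3g, Cd79b, Klrd1 and Prf1 were under the floor on both arrays.

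Markers of the labelled tissue were present. Of 17 filtered neuronal markers, 2 passed 2-fold upward in synaptosomes and 3 downward, against 19.1% and 14.3% of all genes. Their median log2 ratio was 0.35, with 11 ratios above 0 and 6 below. Syn2 read 38490 in synaptosomes and 20200 in the hippocampus, and Gad2 2276 and 1130, each over 2-fold higher. The synaptic vesicle protein Syp read 39997 and 27079. The fusion protein Snap25 read 32782 and 109086, the growth cone protein Gap43 7946 and 19570 and Nrgn 13062 and 29598, each over 2-fold lower. Slc17a7 was under the floor on both arrays. Neuronal markers summed to 300860 in synaptosomes and 359003 in the hippocampus, of which Snap25 gave 32782 and 109086. Astrocyte markers summed to 265741 and 276328, and oligodendrocyte markers to 42711 and 64569, so glial markers were also measured in the synaptosomal RNA. Fewer cells of a type and less RNA per cell cannot be told apart in such samples. Signals of different probe sets depend on their sequences, so such sums are set side by side only between the arrays, not between lists.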

How the data were processed

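RNA from synaptosomes and from the total hippocampus was measured on 1 array each. The authors deposited a table of intensity on a linear scale for 8799 probe sets, 59 of them controls. Scanner software and background correction were not given in the sources used here. With the lowest and highest 2% left out, both arrays had a mean of 2500, so no further scaling was applied. The number of arrays limits the precision.

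Values under the floor, percentile 50 of the pooled non-control values, were set to it. The filter kept 4370 probe sets with a mean log2 level of at least 10.07, and 2735 genes. Names came from the platform annotation: 7006 non-control probe sets had 1 symbol, 308 several and 1426 none. Another 13 probe sets name a member among several symbols and were not used. RefSeq (GRCr8) held 106 of the 107 member genes and changed 0 symbols.

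Members, lists and alternatives were chosen with earlier results of these data known. Named are member genes past 2-fold, the 10 brightest, all MHC, complement, Fc receptor and interferon-induced genes above the floor on at least 1 array, and the extremes of the other role groups. Others were chosen after their values were seen. The filter, floor and fold steps were run on 2 copies of the hippocampus values, with known changes set in bright genes and no noise added. This checks the arithmetic only and says nothing of calls near background. Python 3.11.15, NumPy 2.4.6, pandas 2.3.3 and matplotlib 3.10.9 were used.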

Additional observations from a re-analysis of the deposited data

How the results depend on the processing

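No paired analysis was possible because there was 1 array per group. Cd81, Tnfrsf21 and RT1-CE16 kept their direction and 2-fold size under each alternative that gave a value, with log2 ratios of 1.45 to 2.35, 1.33 to 2.19 and -2.44 to -1.59. RT1-CE16 has no value without suffixed probe sets. The direction of Cxcl14 and RT1-Ba reversed without suffixed probe sets, to -1.45 and -1.03, since another probe set then stood for the gene. With the floor at percentile 75, 29 member probe sets lay above it in synaptosomes and 31 in the hippocampus, 3 genes were at least 2-fold higher and 2 lower. With the floor of each array at its noise limit these were 28, 13, 5 and 1, with 25 genes past the filter, and the median was 0.53. The unequal floors then shift the ratios of all genes too, whose median was 0.55, with 25.2% at least 2-fold higher and 1.44% lower. Cd151, Cd59b, Fcgrt, RT1-M3-1 and RT1-CE12, all near 0, had positive ratios under this alternative. Without suffixed probe sets 38 of 100 member probe sets were above the floor in synaptosomes and 48 in the hippocampus, and the median was -0.21. The median was -0.19 without centring, -0.12 without the filter and -0.19 with the mean over probe sets. Without centring 9 member genes were at least 2-fold higher and 11 lower, and 14.7% and 19.5% of all genes. Taking Ptprc as a member, and leaving out the CD antigens, an alternative added after the data were seen, kept all counts of genes within 1.5 times. Signals near background limit most members: 138 of 167 probe sets (82.6%) were within the noise limit on both arrays, against 75% of all.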
